A study of Mus musculus with 6 samples.

Results

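Mesenchymal effector genes, whose products build, anchor or remodel the mesenchymal side of a tumour cell, were examined here: Vim, Nes, Cd44, Axl, Tnc, Tgfbi, Lox and Loxl2. They were chosen by name as mesenchymal effectors, and all 8 of 8 were found in the count table of 54532 genes. Of the 8, 6 passed the filter on low counts that left 13874 genes for testing; Lox and Loxl2 did not. Transcripts were counted in 6 RNA sequencing libraries of 2208L, a transplantable mouse mammary tumour carried by Balb/c mice, with no treatment in any group. The CTC group held 3 libraries of tumour cells taken from peripheral blood and then propagated. The PT group held 3 libraries of tumour cells enriched after dissociation of the primary tumour. Each PT library was labelled as matched with the CTC library of its number, so the design held 3 matched mice. Propagation is named for CTC alone, so this step and the group cannot be told apart. The sources used here do not give the age of the mice, how the cells were propagated or how tumour cells were enriched. Where 3 values are given for a group, they stand in the order of replicates 1, 2 and 3.

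Epithelial tumour cells can take up part of a mesenchymal programme without losing their epithelial one. In that programme the keratin cytoskeleton is joined by vimentin filaments, adhesion shifts towards matrix receptors, and the cell adds matrix proteins and enzymes that stiffen the matrix. Vim encodes vimentin and Nes encodes nestin, both intermediate filament proteins. Cd44 encodes a receptor for hyaluronan and Axl a receptor tyrosine kinase of the TAM family. Tnc encodes the matrix glycoprotein tenascin C, and Tgfbi a secreted matrix protein induced by TGF-beta. Lox and Loxl2 encode lysyl oxidases, which cross-link collagen and elastin.

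Total counts ranged from 23845953 to 27897320 per library. Levels are given as CPM, counts scaled to a common library size by TMM, and 3 counts corresponded to at most 0.129 CPM, a limit that covers counting error only. Of the 14 epithelial identity genes, all but Krt19 were detected in every library. The 14, among them Krt8, Krt18, Epcam and Cdh1, summed to between 3176 CPM (CTC replicate 3) and 9059 CPM (CTC replicate 1). Krt19 had 0 counts in both replicate 3 libraries. Ovol2 and Esrp2 lay lower in CTC without overlap, as did 6.16% of all tested genes. DESeq2 with the matched mouse as a block called Krt19 higher and Ovol2 lower in CTC (adjusted p = 0.00127 and 0.0226), with 1.87% of its genes called. Neither was called by edgeR. The 12 leukocyte markers summed to at most 22.9 CPM, in CTC replicate 2 and mostly from Csf1r, and the 7 endothelial markers to at most 2.02 CPM. The macrophage marker Adgre1 and the neutrophil marker Ly6g had 0 counts in every library. The 9 fibroblast markers had sums of 8.91, 60.03 and 165 CPM (CTC) and of 76.1, 18.2 and 43.9 CPM (PT). The 6 basal and myoepithelial markers summed to 190, 305 and 1404 CPM (CTC) against 6277, 403 and 936 CPM (PT), mostly from Krt14. PT replicate 1 stood apart in this sum, with the basal keratin gene Krt5 at 876 CPM against at most 6.996 CPM elsewhere. Of the 6, Krt5, Krt14 and Krt17 were highest in PT replicate 1. Trp63 was highest in CTC replicate 3, at 151 CPM against 60.3 CPM in PT replicate 1. Acta2 and Oxtr, at most 1.41 CPM, were highest in CTC libraries. The median log2 fold change of the 4 tested basal markers was -2.54, and -0.40 without PT replicate 1. In bulk RNA, fewer cells with a transcript and less of it per cell cannot be told apart.

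Among the members detected well in every library, the 3 whose levels spread most were Vim, Nes and Tnc, and their start regions are shown for that reason. RefSeq windows on GRCm38.p6, running from 250 bases before to 50 bases after a transcript start, matched 6 of the 8 members. Capitals mark short motifs found by a search of both strands. The search took the letters TATAAA for a TATA box. It took CCAAT for the box of that name and GGGCGG for a GC box. An AP-1 site was spelled TGANTCA, and an E-box bound by Snail and ZEB factors was spelled CAGGTG.
Vim: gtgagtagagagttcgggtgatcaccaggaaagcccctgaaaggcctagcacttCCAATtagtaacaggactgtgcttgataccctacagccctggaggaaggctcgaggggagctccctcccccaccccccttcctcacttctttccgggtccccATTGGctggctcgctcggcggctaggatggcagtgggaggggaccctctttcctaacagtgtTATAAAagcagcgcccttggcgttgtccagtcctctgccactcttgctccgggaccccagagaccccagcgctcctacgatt
Nes: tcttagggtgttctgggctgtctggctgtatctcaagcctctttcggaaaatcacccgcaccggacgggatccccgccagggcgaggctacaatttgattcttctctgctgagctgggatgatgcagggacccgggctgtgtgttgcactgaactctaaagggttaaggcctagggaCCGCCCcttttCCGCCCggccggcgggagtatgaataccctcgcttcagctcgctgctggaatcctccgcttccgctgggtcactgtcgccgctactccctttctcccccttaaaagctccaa
Tnc: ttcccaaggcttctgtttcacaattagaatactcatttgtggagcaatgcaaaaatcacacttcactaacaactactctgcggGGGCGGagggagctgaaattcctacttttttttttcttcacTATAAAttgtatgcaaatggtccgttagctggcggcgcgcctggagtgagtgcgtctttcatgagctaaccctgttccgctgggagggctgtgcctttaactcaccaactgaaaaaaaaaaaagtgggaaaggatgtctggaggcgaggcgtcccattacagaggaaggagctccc
The Vim window lies at chr2:13574061-13574360 on the plus strand, and its start is 384 bases inside the gene as the deposited table draws it. The Nes window lies at chr3:87970843-87971142 on the plus strand. The Tnc window lies at chr4:64046966-64047265 on the minus strand, and RefSeq holds a second, later start for the gene. The Vim window held a TATA box 32 bases before the start and a CCAAT box on either strand, 196 and 94 bases before it. The Nes window held a GC box on the opposite strand, 73 and 62 bases before the start. The Tnc window held a GC box 167 bases and a TATA box 126 bases before the start. Of 32851 RefSeq windows of this length, 13.6% held the TATA box, 37.4% the CCAAT box and 35.7% the GC box. The AP-1 site, present in 7.81% of windows, and the E-box, in 20.2%, were not in any of the 6 members' windows. No printed motifs overlap each other. Such matches describe the letters of the windows and do not show that a factor binds there.

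**Figure D1:**
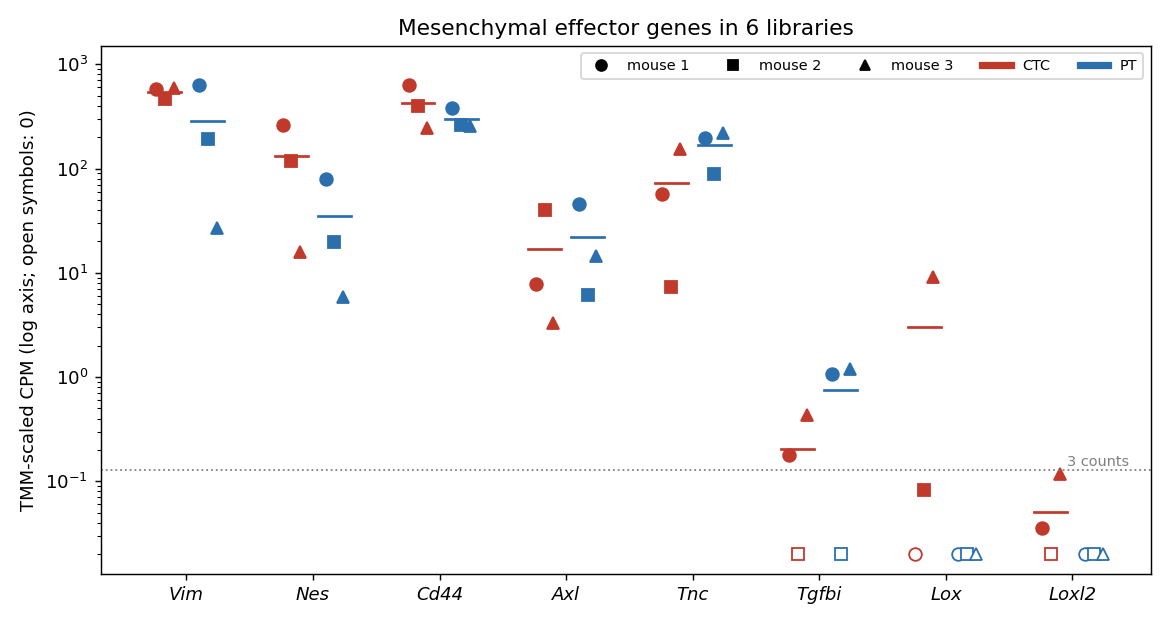
TMM-scaled CPM of the 8 genes in each library on a log axis, with CTC in red, PT in blue, the matched mouse as the symbol and the group mean as a line. Open symbols at the bottom are libraries with 0 counts, and the dotted line is the level of 3 counts in the library where it is highest. Vim, Nes, Cd44, Axl and Tnc lie above 3 CPM in every library, and Lox rises above the dotted line in CTC replicate 3.

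Ordered by length-scaled level (TPM, from the deposited gene lengths), Vim led with a mean of 239 TPM over the 6 libraries, followed by Cd44 at 147 TPM, Tnc at 42.1, Nes at 36.4, Axl at 10.1, Lox at 0.928, Tgfbi at 0.347 and Loxl2 at 0.0139. The ranges of neighbours in this order overlapped, except those of Cd44 and Tnc. Vim spanned 16.0 to 369 TPM and Cd44 92.9 to 281 TPM; Tnc spanned 2.46 to 79.3, Nes 2.57 to 122 and Axl 1.91 to 22.5 TPM. Vim was the highest of the 8 in 5 libraries, and Cd44 was in PT replicate 3.

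Neither edgeR nor limma-voom separated the groups for any member. Of the 6 tested members, edgeR's quasi-likelihood test called 0 higher and 0 lower in CTC, and over all genes it called 0% (0 of 13874, smallest adjusted p 0.611). At an unadjusted p under 0.05 it gave 919 genes, 6.62%, and 0 members; limma-voom also called 0. The median log2 fold change was 0.06 over the 6 tested members, 3 higher and 3 lower in CTC, and 0.05 over all tested genes. CTC and PT overlapped for each of the 6 tested members, and 12.1% of tested genes had groups without overlap. So few members cannot be set apart from that share. The untested Lox and Loxl2 also overlapped, each with 0 counts in a CTC library and in every PT library. DESeq2 called 0 members and 0.631% of its genes. DESeq2 with the matched mouse as a block called 2 members, Nes higher and Tnc lower in CTC; it called 1.87% of its genes, 0.878% higher and 0.989% lower.

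**Figure D2:**
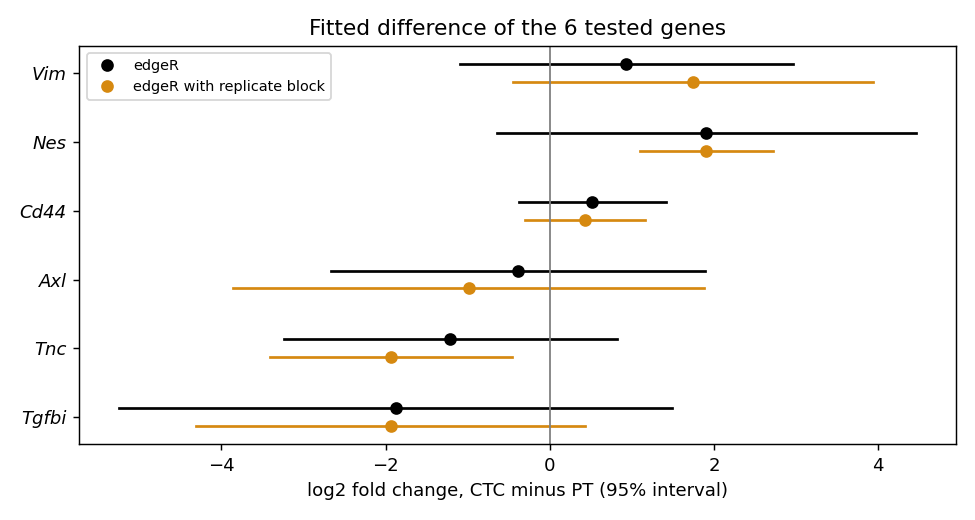
Log2 fold change, CTC minus PT, of the 6 tested members with its 95% interval, from edgeR without (black) and with (orange) the matched mouse as a block. All 6 intervals without the block include 0, and with the block those of Nes (1.098 to 2.72) and Tnc (-3.41 to -0.46) do not, although both adjusted p-values stay above the threshold.

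Vimentin transcripts were abundant in every CTC library and spread widely among the primary tumours. Vim (ENSMUSG00000026728, chromosome 2, 13573927 to 13582826, plus strand, GRCm38) was at 576, 462 and 598 CPM (CTC) against 639.8, 191 and 26.8 CPM (PT). The CTC libraries lay within 1.30-fold of each other, while PT replicate 1 lay above them all in CPM and PT replicate 3 was 23.8-fold below PT replicate 1. In TPM, PT replicate 1 (334) lay below CTC replicates 1 and 3 (364 and 369). The means of CTC and PT were 545 ± 73.2 and 286 ± 317 CPM (SD, n = 3 each), and the log2 fold change was 0.93 (SE 0.87, 95% interval -1.09 to 2.96, edgeR adjusted p = 0.800). It was 2.34 without PT replicate 1, 0.39 without PT replicate 3 and 1.74 with the replicate block (adjusted p = 0.773).

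In PT replicate 3 Vim stood at 0.00621 of the level of Krt8 per length, against 0.0372 to 0.260 in the other 5 libraries. Vim exceeded 51.5% of tested genes per length in that library and 88.6% to 97.4% in the others. Its SD within groups on the log2 scale was 1.64, larger than in 99.6% of the 1211 tested genes of like mean level (within 1 log2 unit), whose median was 0.39. In CPM, the 2 libraries with the most Vim, PT replicate 1 and CTC replicate 3, also had the highest fibroblast sums, 76.1 and 165 CPM. CTC replicate 1, with Vim at 576 CPM, had the lowest, 8.91 CPM. In TPM, CTC replicates 3 and 1 had the most Vim. PT replicate 1 also had the highest sum of the basal markers, though not the highest Trp63. The part of either marker group in the Vim level was not tested. Leukocytes and endothelial cells also express Vim, and their defining markers Ptprc, Adgre1, Pecam1, Cdh5 and Cldn5 reached at most 1.70 CPM in any library, while the macrophage receptor gene Csf1r reached 20.3 CPM in CTC replicate 2.

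Nestin was higher in CTC than in the matched PT library in each of the 3 mice. Nes (ENSMUSG00000004891, chromosome 3, 87971078 to 87980451, plus strand), first known as a filament of neural stem cells, was at 261, 118 and 15.7 CPM (CTC) against 79.8, 19.8 and 5.85 CPM (PT). In both groups the library of mouse 1 was highest and that of mouse 3 lowest, so CTC replicate 3 lay below PT replicates 1 and 2. Within mice 1, 2 and 3 the difference, CTC minus PT, was 1.71, 2.58 and 1.41 (log2 CPM), and CTC lay above PT in all 3 mice for 15.4% of tested genes. The group means were 132 ± 123 and 35.1 ± 39.3 CPM (SD, n = 3 each), and the log2 fold change, CTC minus PT, was 1.91 (SE 1.102, 95% interval -0.64 to 4.46, edgeR adjusted p = 0.727).

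The spread of Nes within groups was 1.98 on the log2 scale, larger than in 99.4% of 4576 genes of like level. With the replicate block the log2 fold change stayed at 1.91 and its SE fell to 0.34, while the edgeR adjusted p was 0.592. DESeq2 with the block gave a log2 fold change of 1.88 and called Nes (adjusted p = 0.000303); without mouse 2 it did not (1.53, adjusted p = 0.133). Without the block and without CTC replicate 1 the edgeR log2 fold change was 0.94, and without PT replicate 1 it was 3.36.

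**Figure D3:**
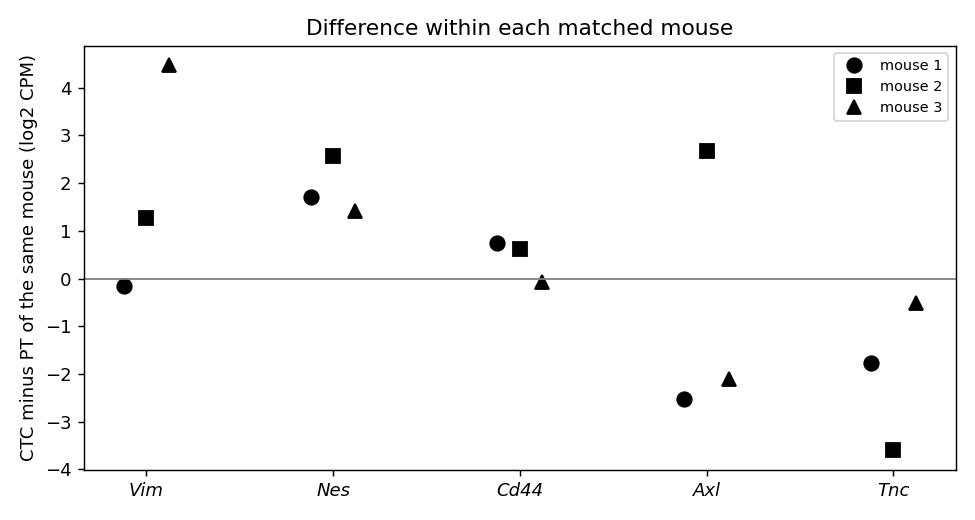
Difference between the CTC and PT libraries of the same mouse in log2 CPM for the 5 members above 3 CPM, with the mouse as the symbol. Nes lies above 0 and Tnc below 0 in all 3 mice, while Vim, Cd44 and Axl each have a mouse on the other side of 0.

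The other 8 intermediate filament genes of non-epithelial cells had low levels. Des, Gfap, Prph, Synm, Nefl, Nefm, Nefh and Ina together summed to between 1.33 and 4.64 CPM per library, and 3 of them had 0 counts in every library. Prph and Synm were tested, and neither was called. Synm, which encodes a partner of vimentin filaments, was at 0.781, 0.417 and 2.03 CPM (CTC) against 2.42, 4.16 and 3.11 CPM (PT) (log2 fold change -1.58, edgeR adjusted p = 0.726). It lay lower in CTC without overlap, as did 6.16% of all tested genes.

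Cd44 was the most even of the abundant members. Cd44 (ENSMUSG00000005087, chromosome 2, 102811141 to 102901665, minus strand) was at 635, 400.3 and 243 CPM (CTC) against 379, 259 and 257 CPM (PT). CTC replicates 1 and 2 exceeded every PT library, and CTC replicate 3 was the lowest of all 6. The means were 426 ± 197 and 298 ± 69.5 CPM (SD, n = 3 each), and the log2 fold change, CTC minus PT, was 0.51 (SE 0.39, 95% interval -0.38 to 1.41, edgeR adjusted p = 0.771). Its SD within groups, 0.54 on the log2 scale, exceeded that of 79.7% of 938 genes of like level. Without CTC replicate 1 the log2 fold change was 0.11, and without CTC replicate 3 it was 0.79. Counts per gene do not show which of the Cd44 splice forms were present. Esrp1, an epithelial splicing regulator known to act on Cd44, was at 242, 185 and 113 CPM (CTC) against 147, 173 and 191 CPM (PT), so that CTC replicates 1 and 3 were also the ends of its range. The same 2 libraries were the ends for the sum of the epithelial identity genes (9059 and 3176 CPM), so this is not particular to Esrp1.

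Around Cd44, 12 genes were tested, those of hyaluronan synthesis, breakdown and binding, those of the ERM linkers, and Spp1. Of the genes tested, 8 were higher and 4 lower in CTC, and neither edgeR nor DESeq2 with the block called any. Their median log2 fold change was 0.12. Of the 12, 3 (Has2, Has3 and Msn) had CTC above PT without overlap, as had 5.95% of all tested genes. Has2, a hyaluronan synthase, was at 19.2, 6.71 and 23.9 CPM (CTC) against 5.06, 4.59 and 6.47 CPM (PT). Has3, another synthase, was at most 1.80 CPM. Msn, which encodes moesin and links CD44 to actin, was at 1611, 852 and 526 CPM (CTC) against 487, 334 and 489.5 CPM (PT). Its log2 fold change of 1.19 had an edgeR adjusted p of 0.726. Spp1, which encodes osteopontin, a ligand of CD44, was at 578 CPM in CTC replicate 1 and between 1555 and 3427 CPM elsewhere.

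Axl had no common direction over the mice. Axl (ENSMUSG00000002602, chromosome 7, 25757273 to 25788705, minus strand) was at 7.88, 39.6 and 3.29 CPM (CTC) against 45.7, 6.09 and 14.5 CPM (PT). It was high in CTC replicate 2 and PT replicate 1 and low in the other 4 libraries, and the groups overlapped widely. PT replicate 1, the highest in Axl, also had the highest sum of the basal markers, 6277 CPM. CTC replicate 2, also high in Axl, had a basal sum of 305 CPM, and CTC replicate 3, the lowest in Axl, had 1404 CPM. The part of the basal markers in the Axl level was not tested. Within mice 1, 2 and 3 the difference was -2.52, 2.68 and -2.11 (log2 CPM). The means were 16.9 ± 19.8 and 22.1 ± 20.8 CPM (SD, n = 3 each), and the log2 fold change, CTC minus PT, was -0.38 (SE 0.98, 95% interval -2.66 to 1.89, edgeR adjusted p = 0.925). The sign turned to 0.72 without PT replicate 1 and to 0.10 without CTC replicate 3, and the value was -2.01 without CTC replicate 2 and -0.04 without CTC replicate 1. With the block it was -0.99, and without mouse 1 it was 1.07.

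Both other TAM receptor genes were lower in every CTC library than in any PT library, as were 6.16% of all tested genes. Tyro3, a second TAM receptor, was at 23.8, 72.3 and 70.1 CPM (CTC) against 108, 105 and 77.8 CPM (PT), and edgeR did not call it (log2 fold change -0.81, adjusted p = 0.726). Mertk, the third, was at 0, 0.208 and 0.235 CPM (CTC) against 0.422, 1.63 and 2.28 CPM (PT) and did not pass the filter for edgeR. Gas6, a ligand that activates these receptors, was at 8.31, 51.2 and 143 CPM (CTC) against 45.1, 634 and 272 CPM (PT). The gene was lower in CTC in each matched mouse, as were 15.3% of tested genes. Its log2 fold change was -2.23 (edgeR adjusted p = 0.726), and DESeq2 with the block called it (adjusted p = 0.00103), with 1.87% of its genes called. Pros1, which encodes protein S, another ligand, was between 5.29 and 32.6 CPM. Of the 3 tested genes among these 4, edgeR called 0.

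Tenascin C was lower in CTC than in the matched PT library in each mouse. Tnc (ENSMUSG00000028364, chromosome 4, 63959785 to 64047015, minus strand) was at 57.5, 7.30 and 154 CPM (CTC) against 197, 89.4 and 219 CPM (PT). CTC replicate 3 lay above PT replicate 2, so the groups overlapped, and CTC replicate 2 lay 21.0-fold below CTC replicate 3. Within mice 1, 2 and 3 the difference was -1.78, -3.60 and -0.51 (log2 CPM), and CTC lay below PT in all 3 mice for 15.3% of tested genes. The means were 72.8 ± 74.3 and 168 ± 69.2 CPM (SD, n = 3 each), and the log2 fold change, CTC minus PT, was -1.21 (SE 0.88, 95% interval -3.24 to 0.82, edgeR adjusted p = 0.764).

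With the block the log2 fold change of Tnc was -1.94 (edgeR adjusted p = 0.766). DESeq2 with the block called it at -1.97 (adjusted p = 0.0282), and without mouse 2 it did not (-1.18, adjusted p = 0.598). Without the block and without CTC replicate 2 the edgeR log2 fold change was -0.68, and without CTC replicate 3 it was -2.38. The SD of Tnc within groups, 1.66 on the log2 scale, exceeded that of 99.5% of 4033 genes of like level. A transcript on the opposite strand, 8030451A03Rik, overlaps Tnc and had 101 counts in all, 0.555% of those of Tnc. Of the other tenascins, Tnxb ranged from 0.166 to 10.5 CPM with its highest values in CTC replicate 3 and PT replicate 1, and Tnr and Tnn reached at most 0.333 CPM.

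Tgfbi was barely detected. It (ENSMUSG00000035493, chromosome 13, 56609523 to 56639562, plus strand) had 5, 0 and 11 counts over the CTC libraries and 28, 0 and 29 over the PT libraries. The replicate 2 libraries of both groups were at 0, where 3 counts, 0.125 and 0.129 CPM, are the upper limit. PT replicates 1 and 3, at 1.07 and 1.20 CPM, were the highest, and the means were 0.203 ± 0.216 and 0.759 ± 0.660 CPM (SD, n = 3 each). The log2 fold change of -1.88 (SE 1.46, 95% interval -5.24 to 1.49, edgeR adjusted p = 0.778) rested on 73 counts in all, and it was -2.99 without CTC replicate 3. Postn, which encodes periostin, a relative of the Tgfbi product, was at 2.70, 24.4 and 28.9 CPM (CTC) against 12.6, 1.03 and 19.5 CPM (PT). Stab1, a further gene of the fasciclin domain family, was at 15.8, 26.2 and 1.56 CPM (CTC) against 2.76, 3.31 and 0.705 CPM (PT). DESeq2 with the block called Stab1 (adjusted p = 0.00343), with 1.87% of its genes called, and edgeR did not (0.726).

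Of the lysyl oxidases named among the 8, Lox was detected in CTC replicate 3 and Loxl2 in no library above 3 counts. Lox (ENSMUSG00000024529, chromosome 18, 52516069 to 52529867, minus strand) had 0, 2 and 232 counts over the CTC libraries and 0 counts in each PT library. Its level in CTC replicate 3 was 9.08 CPM, against an upper limit of 0.115 to 0.129 CPM in the PT libraries. When no genes were filtered out, edgeR called Lox (adjusted p = 0.00737, with 0.728% of genes called). Without CTC replicate 3 edgeR did not call Lox (adjusted p = 0.795, with 3.89% of genes called). That library held 232 of the 234 Lox counts, so this outcome was fixed in advance. CTC replicate 3 also had the highest sum of the 9 fibroblast markers, 165 CPM against 8.91 to 76.1 CPM in the other 5 libraries. Of that sum Col3a1 gave 125 CPM and Pdgfra 38.7 CPM, while Col1a1 was at 0.430 CPM and Col1a2, Lum and Thy1 at 0 in that library. The part of these transcripts in the Lox level was not tested. Loxl2 (ENSMUSG00000034205, chromosome 14, 69609068 to 69695834, plus strand) had 1, 0 and 3 counts in CTC and 0 in each PT library, and the antisense gene Gm27177 that overlaps it had 2.

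Loxl4 carried most of the lysyl oxidase transcripts. It was at 213, 99.5 and 127 CPM (CTC) against 174, 378 and 200.3 CPM (PT), and the log2 fold change, CTC minus PT, was -0.78 (edgeR adjusted p = 0.726), with overlapping groups. Loxl3 was at 1.03, 1.67 and 0.313 CPM (CTC) against 9.35, 2.02 and 1.70 CPM (PT), lower in CTC without overlap, as were 6.16% of all tested genes. Loxl1 was at 25.1 CPM in PT replicate 1 and at most 1.46 CPM in the other libraries, so it was high in the library with the most basal marker transcripts, whose part in it was not tested. All 3 had a negative log2 fold change and edgeR called 0 of them, while DESeq2 with the block called Loxl1 (adjusted p = 0.00524), with 1.87% of its genes called.

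Other mesenchymal effectors showed no common shift. Of 36 such genes, from a list chosen with earlier results known, 30 were tested, and 17 were higher and 13 lower in CTC. For this list edgeR called 0 and DESeq2 with the block 1 (Inhba), while the latter called 1.87% of all its genes. The median log2 fold change was 0.17 against 0.05 over all genes. The classical mesenchymal cadherin Cdh2 reached at most 0.115 CPM, Acta2 0.533 CPM and Myl9 0.125 CPM. Fn1, which encodes fibronectin, ranged from 469 to 2142 CPM with both ends in PT. Mmp14, a membrane-bound collagenase, was the 1 tested gene of the list without overlap. It was at 198, 126 and 117 CPM (CTC) against 93.5, 80.7 and 88.4 CPM (PT) (log2 fold change 0.75, edgeR adjusted p = 0.726). Of all tested genes, 5.95% had CTC above PT without overlap, so 1 of 30 does not set the list apart. The 2 largest log2 fold changes among genes averaging 3 or more in log2 CPM were those of Inhba (1.95) and Cyr61 (1.80). Inhba, an activin subunit, was at 142, 35.1 and 25.3 CPM (CTC) against 26.3, 12.1 and 14.1 CPM (PT), and DESeq2 with the block called it (adjusted p = 0.0159). Cyr61 was at 1442 CPM in CTC replicate 1 and between 111 and 178 CPM elsewhere.

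Among the 8 transcription factors of the epithelial-mesenchymal transition, 7 were tested, 6 were higher and 1 lower in CTC, and neither edgeR nor DESeq2 with the block called any. Of all tested genes, 54.1% were higher in CTC. The median log2 fold change of these factors was 0.56, 0.26 with the edgeR replicate block and 1.37 without PT replicate 1. Snai1 was at 216 CPM in CTC replicate 3 and between 19.1 and 86.1 CPM elsewhere. Twist1 and Prrx1 ranged from 32.1 to 91.1 CPM and from 50.3 to 106 CPM. Zeb2 was at 9.51, 8.59 and 13.7 CPM (CTC) against 5.83, 4.16 and 4.07 CPM (PT) (log2 fold change 1.18, edgeR adjusted p = 0.726). Its CTC libraries lay above PT without overlap, as did those of 5.95% of all tested genes.

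The genes beside a member on its chromosome were read as the median deviation, from each gene's own mean over the 6 libraries, of the 20 nearest tested protein-coding genes. Their spans differed. They ran from 87.4 to 88.4 megabases around Nes, 25.4 to 27.3 around Axl and 11.6 to 18.4 around Vim. Around Cd44 they ran from 94.0 to 104 megabases and around Tnc from 62.6 to 81.0, so these medians cover wide regions. Around Vim this median stayed between -0.19 and 0.15 (log2 CPM) while Vim itself deviated by -3.40 in PT replicate 3. Around Nes it ranged from -0.42 in PT replicate 3 to 0.33 in CTC replicate 2, where Nes deviated by -2.78 and 1.54. Around Axl it was 0.75 in PT replicate 1 and -0.71 in CTC replicate 1, where Axl deviated by 1.84 and -0.68, and in CTC replicate 2 it was -0.16 beside 1.63 for Axl. Around Tnc it was -0.64, -0.43 and 0.50 in CTC replicates 1, 2 and 3, where Tnc deviated by -0.46, -3.43 and 0.95. Around Cd44 it stayed between -0.26 and 0.26. The part of such neighbouring shifts in the levels of Axl and Tnc was not tested.

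**Figure D4:**
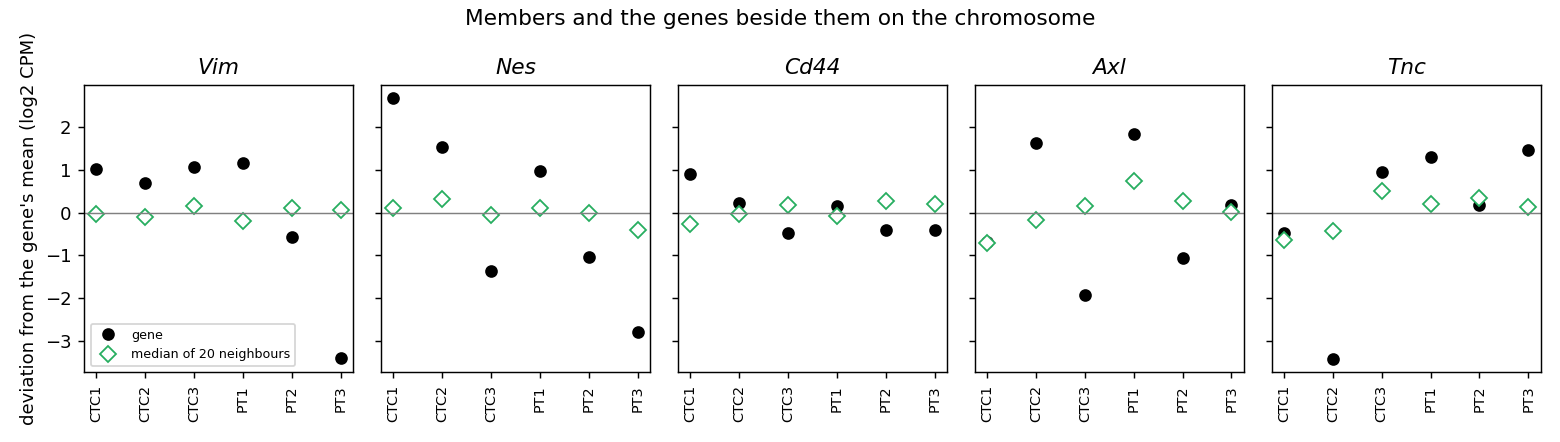
Deviation of 5 members (black) and the median deviation of their 20 neighbours (green diamonds) from the mean over the 6 libraries, in log2 CPM. The low Vim point in PT replicate 3 (-3.40) and the low Tnc point in CTC replicate 2 (-3.43) lie far from their neighbours' medians (0.07 and -0.43).

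The members did not share 1 profile. Likeness was measured as the root mean square difference between the deviations of 2 genes over the 6 libraries, where a smaller value means a closer profile. Among the 5 members above 3 CPM it ranged from 1.29 for Vim and Nes to 3.15 for Nes and Tnc. The 3 closest of 9107 protein-coding genes to Vim were Sdc2 (0.43), Abcc5 (0.56) and Irs2 (0.57), against a median of 1.68 over all of them. Sdc2, which encodes the heparan sulfate proteoglycan syndecan-2, was at 19.95, 29.97 and 32.4 CPM (CTC) against 29.4, 17.1 and 1.20 CPM (PT). Nes was closest to Rnf157 (0.54), Fam167a (0.55) and Prkg2 (0.56). Axl was closest to Atp2c2 (0.76), Mcam (0.86) and Arhgap22 (0.91), and Tnc to Sh3tc2 (0.61), Clmn (0.79) and Casp1 (0.83). With 6 libraries, of which pairs share a mouse, these values describe the profiles and were not tested.

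**Figure D5:**
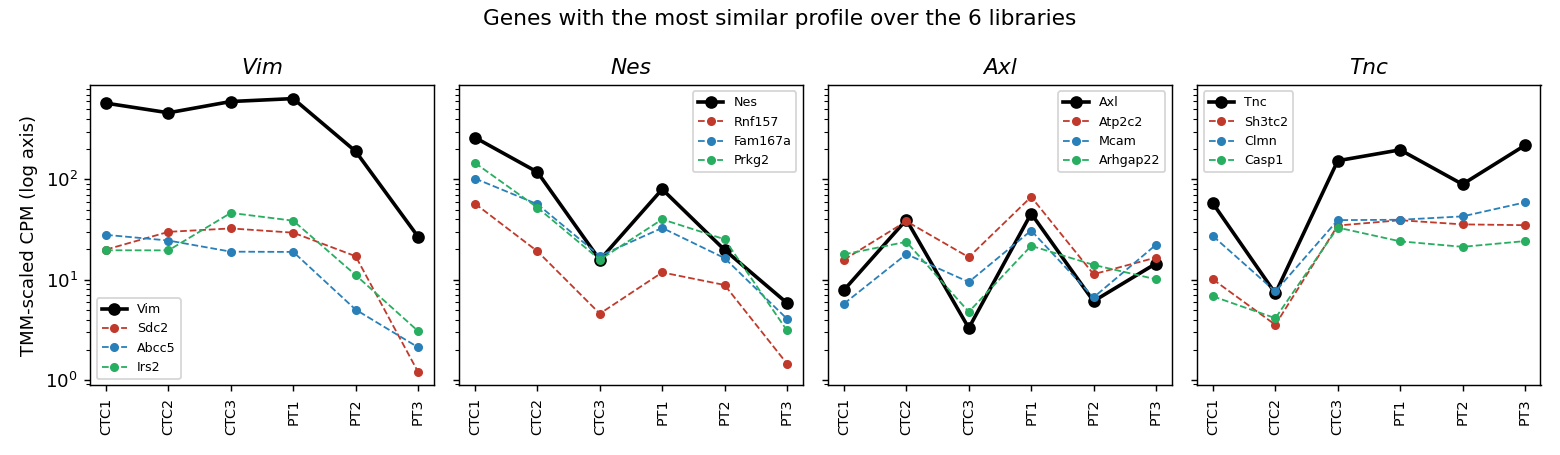
TMM-scaled CPM on a log axis in the 6 libraries for Vim, Nes, Axl and Tnc (black) and for the 3 genes of closest profile to each (coloured). Vim and its 3 closest genes all have their lowest value in PT replicate 3, and Tnc and its 3 closest genes theirs in CTC replicate 2. The genes were chosen for closeness over these same 6 libraries, so a shared lowest library follows largely from the choice.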

How the data were processed

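RNA sequencing counts from 3 CTC and 3 PT libraries of the 2208L tumour were used. Per the labels' protocols, column-purified total RNA (100 ng per library) entered an mRNA kit. The submitters' processing notes name HISAT2 and the genome builds GRCm38 and mm10. The aligner's version, the read counter, its strand setting and the annotation were not given in the sources used here. The deposited table holds raw counts for each Ensembl gene, not normalized, with coordinates and lengths, and 98.3% of the 54409 genes shared with GENCODE M21 had the same start and end.

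Counts were tested with edgeR 4.0.16 (R 4.3.3) by glmQLFit and glmQLFTest, with TMM scaling, filterByExpr by group and Benjamini-Hochberg adjustment over the 13874 genes left (threshold 0.05). Standard errors come from the F statistic. DESeq2 1.42.0 and limma 3.58.1 (voom) were alternatives, besides other scalings, other filters, the replicate block and left-out libraries or mice. Simulated data were run through edgeR with and without the block, limma-voom and DESeq2 without the block. That simulation used changes larger than those of the tested members and capped the spread, so it does not measure performance in these data. DESeq2 with the block was not run on it. Log2 CPM used a prior count of 2, CPM the library sizes after filtering, and TPM was computed from counts and deposited lengths. Members, lists and tests were chosen with earlier results of these data known. All members were named. Of the other mesenchymal effectors and transcription factors, genes without overlap and the 3 largest changes among genes averaging 3 or more in log2 CPM were named. The third of these is not reported here. Genes of closest profile were sought for members with that average and a range of at least 2.

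The labels match each PT library with the CTC library of its number, and the series' design text names matched mice, which sets the pairing. Deviations from group means correlated across genes at -0.02, 0.16 and 0.30 for replicates 1, 2 and 3. No 2 libraries came near sampling noise (chi-square per degree of freedom at least 90.4).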

Additional observations from a re-analysis of the deposited data

How the results depend on the processing

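Levels of the 8 members moved by less than the spread between replicates under other scalings. The number of genes called, 0 with edgeR, was also 0 with the replicate block, with other scalings, with limma-voom and without any 1 library or mouse. It was 91 in DESeq2, 253 in DESeq2 with the replicate block and 199 in edgeR without a filter on low counts; the cause was not tested. Of the members, 2 were called in DESeq2 with the replicate block (Nes at 1.88, Tnc at -1.97) and 1 in edgeR without a filter (Lox). In a setting added after seeing the data, edgeR without a filter and without CTC replicate 3 called 2 (Nes, adjusted p = 4.13e-07, and Tnc, adjusted p = 6.36e-06, where 3.89% of genes were called). In that library Nes lay below PT replicates 1 and 2 and Tnc above PT replicate 2, so leaving it out removed these overlaps by construction. No other library was left out without the filter. With the filter, edgeR without CTC replicate 3 called neither (adjusted p = 0.337 for Nes and 0.317 for Tnc). The edgeR replicate block changed no call. DESeq2 with the replicate block, repeated without each mouse in turn after seeing the data, gave 2.02, 1.53 and 2.11 for Nes and -2.05, -1.18 and -2.73 for Tnc without mice 1, 2 and 3, and both calls ended without mouse 2.

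Without 1 library the log2 fold change ranged from 0.39 to 2.34 for Vim, 0.94 to 3.36 for Nes, 0.11 to 0.79 for Cd44, -2.01 to 0.72 for Axl, -2.38 to -0.68 for Tnc and -2.99 to -1.33 for Tgfbi; without 1 mouse, Axl ranged from -2.46 to 1.07. List medians without 1 library ranged from 0.39 to 1.37 for the transcription factors, from -1.97 to 0.98 for fibroblast markers and from -4.03 to -0.40 for basal markers. Depth limits Tgfbi, Lox and Loxl2, at 73, 234 and 4 counts in all.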
